A study of Mus musculus with 9 samples.

Results

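Neutrophil genes were followed in the back skin of mice with DNCB-induced dermatitis. The members were 30 genes that neutrophils use for their granules, their surface receptors, their oxidase and their regulation, picked by name out of the 34637 genes in the FPKM table (fragments per kilobase of gene and unit of depth, as normalised by the authors) and joined to the count table by gene identifier. None of these genes was called different between the FJDHF-M and Model groups, and neither was any of all 20817 genes tested. Mmp8, the neutrophil collagenase, was the only member whose groups did not overlap, at 3.45 ± 1.08 CPM (counts scaled to a common library total, mean ± SD, n = 5) in FJDHF-M and 7.61 ± 2.61 CPM (n = 4) in Model. Groups did not overlap for 0.528% of all genes tested, and the Mmp8 difference did not pass adjustment over all genes. The receptor genes were all highest in 1 Model library, MXL12, and the specific granule genes Ngp, Ltf and Camp were highest in another, MXL_3.

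All mice were male C57BL/6 animals aged 6 to 8 weeks. DNCB, a small reactive molecule that raises a contact allergy, was painted on the shaved back of every mouse. The skin was sensitised on day 1 with 200 μL of a 1% solution and challenged with 100 μL of a 0.5% solution on repeated days from day 4 to day 21. The FJDHF-M mice received the middle dose of the Fangji Dihuang formulation, a herbal decoction, by mouth each day after day 7, and the Model mice received water in its place, until day 28. Both groups therefore had the same DNCB treatment, and skin without DNCB was not analysed here. The question was whether the formulation changed the transcripts of inflamed skin, and here it was asked of neutrophil genes. The comparison used 5 FJDHF-M libraries, with the column codes MR1, MR3, MR3_4, MR4_5 and MR5, and 4 Model libraries, with the codes MXL1, MXL12, MXL3_4 and MXL_3. These codes were assigned to the groups by their letters and by the number of columns per group and were not matched to single mice, so every direction given here rests on that assignment. Whether a code with more than 1 number marks RNA pooled from several mice was not stated, so n counts libraries.

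Total counts lay between 75221234 and 77372568 in FJDHF-M and between 74648669 and 79474215 in Model. At these depths 3 counts, taken as the floor for a gene in a library, correspond to 0.0377 to 0.0402 CPM, and this floor covers counting error only. No pair among the 36 pairs agreed within sampling noise, so no library was taken as a repeat of another. The tissue label was checked against marker genes, and the 8 keratinocyte markers summed to 8519 to 18139 CPM in FJDHF-M and to 3047 to 13150 CPM in Model. Skeletal muscle markers also differed widely, from a summed 425 CPM in MXL12 to 11635 CPM in MXL_3, the libraries in which most neutrophil genes were highest.

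Neutrophils are short-lived white blood cells that leave the blood for inflamed tissue. They make their granules in sequence in the bone marrow, the primary (azurophil) granules with proteases and myeloperoxidase first, then the secondary (specific) and tertiary (gelatinase) granules with antimicrobial proteins and collagenases. Transcripts of the primary granules are therefore mostly those of bone marrow precursors, while mature neutrophils in tissue rely on receptors for bacterial peptides, for granulocyte colony-stimulating factor and for damaged cells, and on an oxidase that makes superoxide. In dermatitis, neutrophils enter the skin in response to chemokines and interleukin-1 family cytokines. The neutrophil lineage is shaped by the transcription factors PU.1 and C/EBP, and the receptor for granulocyte colony-stimulating factor signals through STAT proteins.

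The promoter sequences of 4 members are shown because these genes carry the main patterns described, with Mmp8 for the group difference, Ngp for the MXL_3 pattern, and Clec4e and Trem1 for the MXL12 pattern. Each holds the 250 bases before the gene's start in RefSeq on GRCm38.p6, written 5′ to 3′ on the gene's own strand. Capitals mark matches, on either strand, to the C/EBP motif TTGCNNAA, the PU.1 core GAGGAA and the STAT motif TTCNNNGAA.
Mmp8, chr9:7558179-7558428, forward strand: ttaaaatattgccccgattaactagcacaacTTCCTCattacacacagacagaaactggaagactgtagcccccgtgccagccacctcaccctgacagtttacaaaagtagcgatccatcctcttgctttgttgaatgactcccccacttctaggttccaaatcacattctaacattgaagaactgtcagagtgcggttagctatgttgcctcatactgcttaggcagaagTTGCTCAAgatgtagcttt
Ngp, chr9:110419558-110419807, forward strand: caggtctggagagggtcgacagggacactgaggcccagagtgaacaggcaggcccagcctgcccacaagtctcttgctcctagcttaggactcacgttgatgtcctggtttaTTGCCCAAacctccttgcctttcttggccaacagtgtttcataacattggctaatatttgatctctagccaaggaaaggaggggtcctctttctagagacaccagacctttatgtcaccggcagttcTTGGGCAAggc
Clec4e, chr6:123289872-123290121, reverse strand: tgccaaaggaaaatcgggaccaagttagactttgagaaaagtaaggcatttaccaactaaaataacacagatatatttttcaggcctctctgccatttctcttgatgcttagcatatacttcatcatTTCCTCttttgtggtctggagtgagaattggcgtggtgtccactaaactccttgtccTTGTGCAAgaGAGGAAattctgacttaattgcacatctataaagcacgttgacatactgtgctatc
Trem1, chr17:48232489-48232738, forward strand: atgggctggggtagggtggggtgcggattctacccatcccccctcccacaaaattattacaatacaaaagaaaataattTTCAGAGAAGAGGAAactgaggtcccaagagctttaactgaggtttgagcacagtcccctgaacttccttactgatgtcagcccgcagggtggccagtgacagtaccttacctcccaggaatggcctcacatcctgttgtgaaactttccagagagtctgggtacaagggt
The Mmp8 promoter held the PU.1 core 219 bases and the C/EBP motif 19 bases before the start. The Ngp promoter held the C/EBP motif at 138 and at 11 bases, with neither of the other motifs. In the Clec4e promoter a C/EBP match at 66 bases lay between PU.1 matches at 123 and 56 bases. In the Trem1 promoter a STAT match at 171 bases adjoined a PU.1 match at 162 bases without sharing a base. RefSeq promoters of 300 bases (250 before and 50 after the start) were at hand for 25 members. A gene with several promoters was counted once, as holding a motif if any of its promoters did. The C/EBP motif was in 6 of the members (24%, against 12.2% of the 27025 genes with a promoter), the PU.1 core in 15 (60%, against 31.3%) and the STAT motif in 4 (16%, against 9.55%). These matches describe the letters only and were not tested.

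The transcripts of the members were low in this skin, apart from Hp. On the FPKM scale, which allows genes to be compared per length, 14 of the 30 members had a median above 1 over the 9 libraries and 13 had a median under 0.5. Hp, which encodes haptoglobin, a haemoglobin-binding protein made by liver and also stored in neutrophil granules, had the highest level with a median of 117 FPKM, and which skin cells its RNA came from was not tested. It was followed at a distance by the oxidase subunit Ncf1 (6.07 FPKM), the gelatinase Mmp9 (5.01 FPKM), the lectin receptor Clec4d (4.90 FPKM) and the resistin-like factor Retnlg (4.21 FPKM). At the other end Prtn3 (0.037 FPKM) and Mpo (0.029 FPKM) were barely detected, and Elane and Csf3 were listed at a median of 0. In counts, 23 members were above the floor in every library and 22 reached 10 counts in every library.

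**Figure D1:**
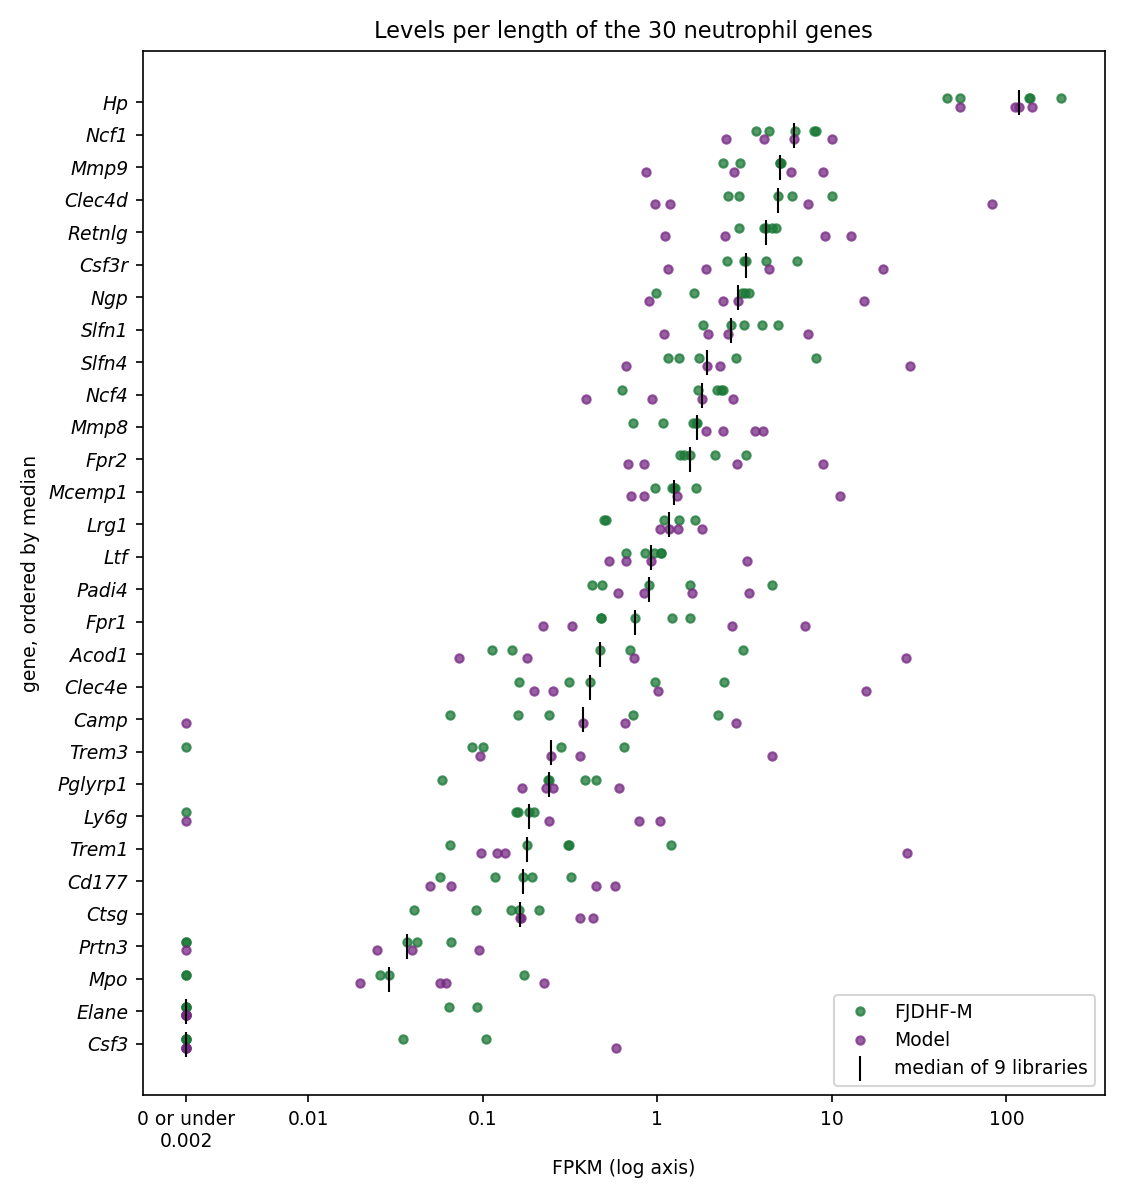
FPKM of the 30 neutrophil genes in each library on a log axis, ordered by the median over 9 libraries (black bars); green points are the 5 FJDHF-M libraries, purple points the 4 Model libraries, and values of 0 or under the axis are placed at its left end. Hp stood above all others at a median of 117 FPKM, while Prtn3, Mpo, Elane and Csf3 lay at the low end.

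A gene was called when the quasi-likelihood test of edgeR gave it a Benjamini-Hochberg adjusted p under 0.05 and its level changed at least 2-fold. Of the 30 members, 27 had enough counts to be tested, and Elane, Prtn3 and Csf3 did not pass the filter on low counts. None of the 27 was called, as was none of all 20817 genes tested (0.0%). The adjusted p was 1.00 for every member. DESeq2's Wald test called 12 genes among all genes and no member. Without adjustment, edgeR gave a p under 0.05 for 2 members, Mmp8 and Trem1, both lower in FJDHF-M, beside 326 genes in all (1.57%), of which 165 were lower (0.793%). The fitted log2 fold change was below 0, that is lower in FJDHF-M, for 23 of the 27 members, beside 55.9% of all genes tested, and its median was -0.84 over the members and -0.032 over all genes. This count rested on MXL12. Leaving out any other single library left 21 to 26 members below 0. Without MXL12, 13 members were below 0 beside 54.9% of all genes and the median was 0.10. Without both MXL12 and MXL_3, 6 were below 0 beside 52.2% and the median was 0.89. The members with an unadjusted p under 0.05 were then 1 (Mmp8) without MXL12, beside 1.78% of all genes, and 7 without both, beside 2.94%. Those 7 were Csf3r, Fpr1, Fpr2, Clec4d, Retnlg, Mmp9 and Slfn1, with log2 fold changes of 1.12 to 2.26, and they were named after their values were seen. MXL12 and MXL_3 were left out together only after the data were seen, and most members were highest in 1 or the other. Leaving out both thus moves the fold changes upward by construction. Other single libraries raised the number in the opposite direction when left out. Lower in FJDHF-M at an unadjusted p under 0.05 were 10 members without MXL1, beside 1.36% of all genes, 7 without MXL3_4, beside 0.903%, and 5 without MR4_5, beside 0.512%. In whole skin, fewer cells of a type and less RNA per cell cannot be told apart.

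**Figure D2:**
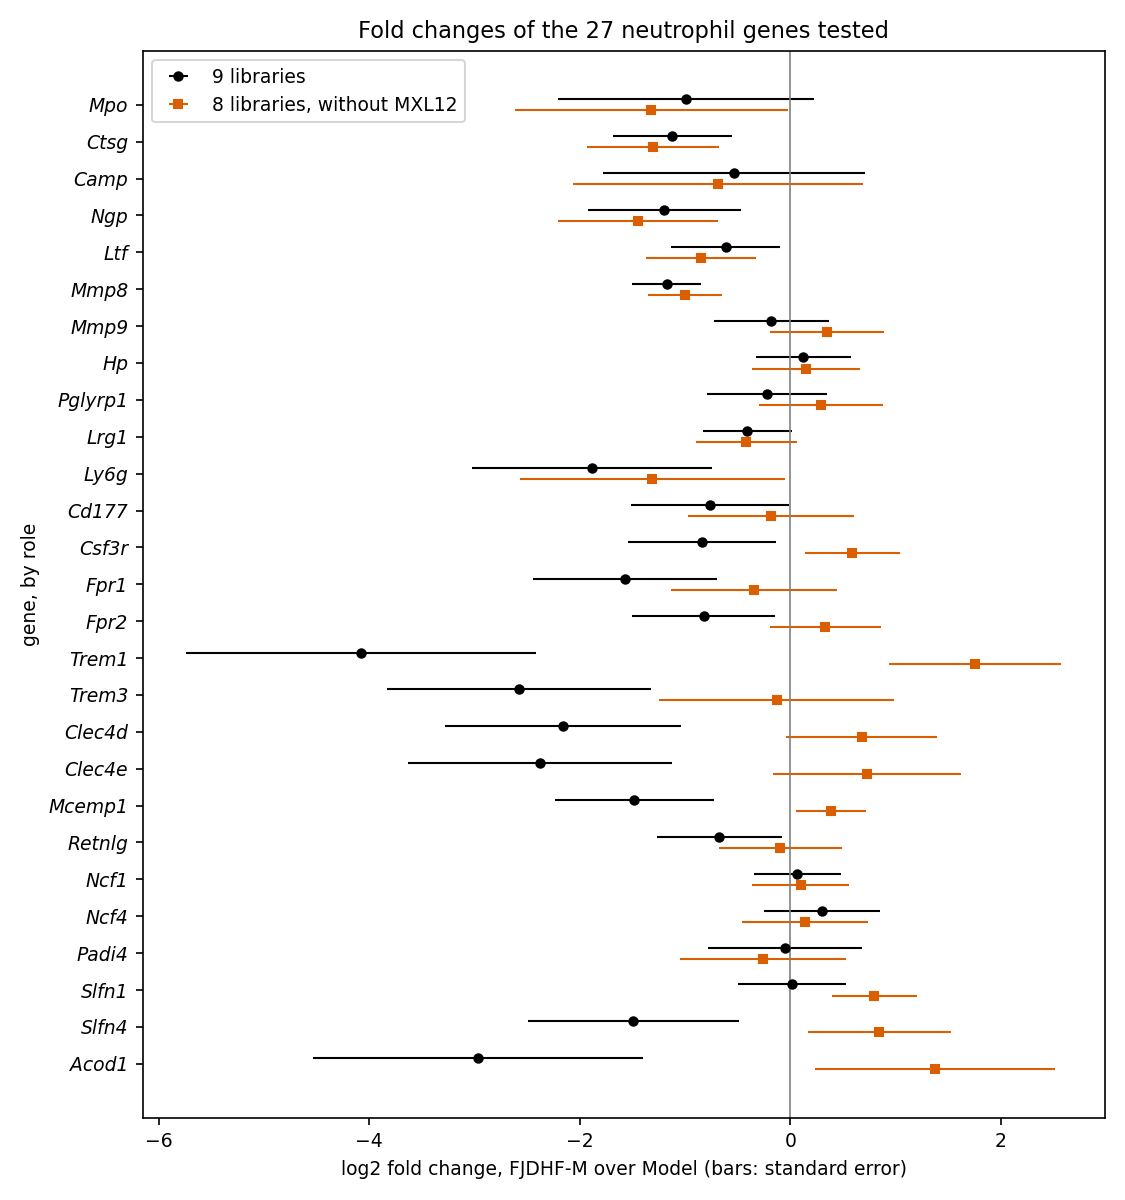
Log2 fold change of FJDHF-M over Model for the 27 tested neutrophil genes, grouped by role, with standard errors as bars; black circles use all 9 libraries and orange squares the 8 libraries without MXL12. Trem1 moved from -4.08 to 1.75 when MXL12 was left out, while Mmp8 stayed below 0 at -1.18 and -1.0.

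Which library held the most of each transcript separated the members more than the groups did. Among the 27 tested members, 17 were highest in MXL12 (63.0%, beside 14.1% of all genes tested) and 7 in MXL_3 (25.9%, beside 13.7%). Over all 30 members these numbers were 18 and 8, and the other 4 were Elane in MR1 (6.75% of all genes), Mpo in MXL1 (17.7%), Padi4 in MR3 (9.05%) and Hp in MR3_4 (7.12%). No member was highest in MXL3_4, MR4_5 or MR5, which led for 8.45%, 9.03% and 14.1% of all genes. The FJDHF-M library MR4_5 was second highest for 11 of the 30 members, among them 7 of the 10 receptor genes. The lowest value of a member fell most often in Model libraries too, in MXL1 for 8 members and in MXL3_4 for 8, with a tie at 0 counted once. By these counts of members, both the most frequent highest and the most frequent lowest libraries were in the Model group. The summed CPM of all members, of which Hp made up 20.7% to 78.2%, did not follow this order. It ran from 252 to 912 in Model and from 173 to 460 in FJDHF-M, with the lowest sum in MR5.

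**Figure D3:**
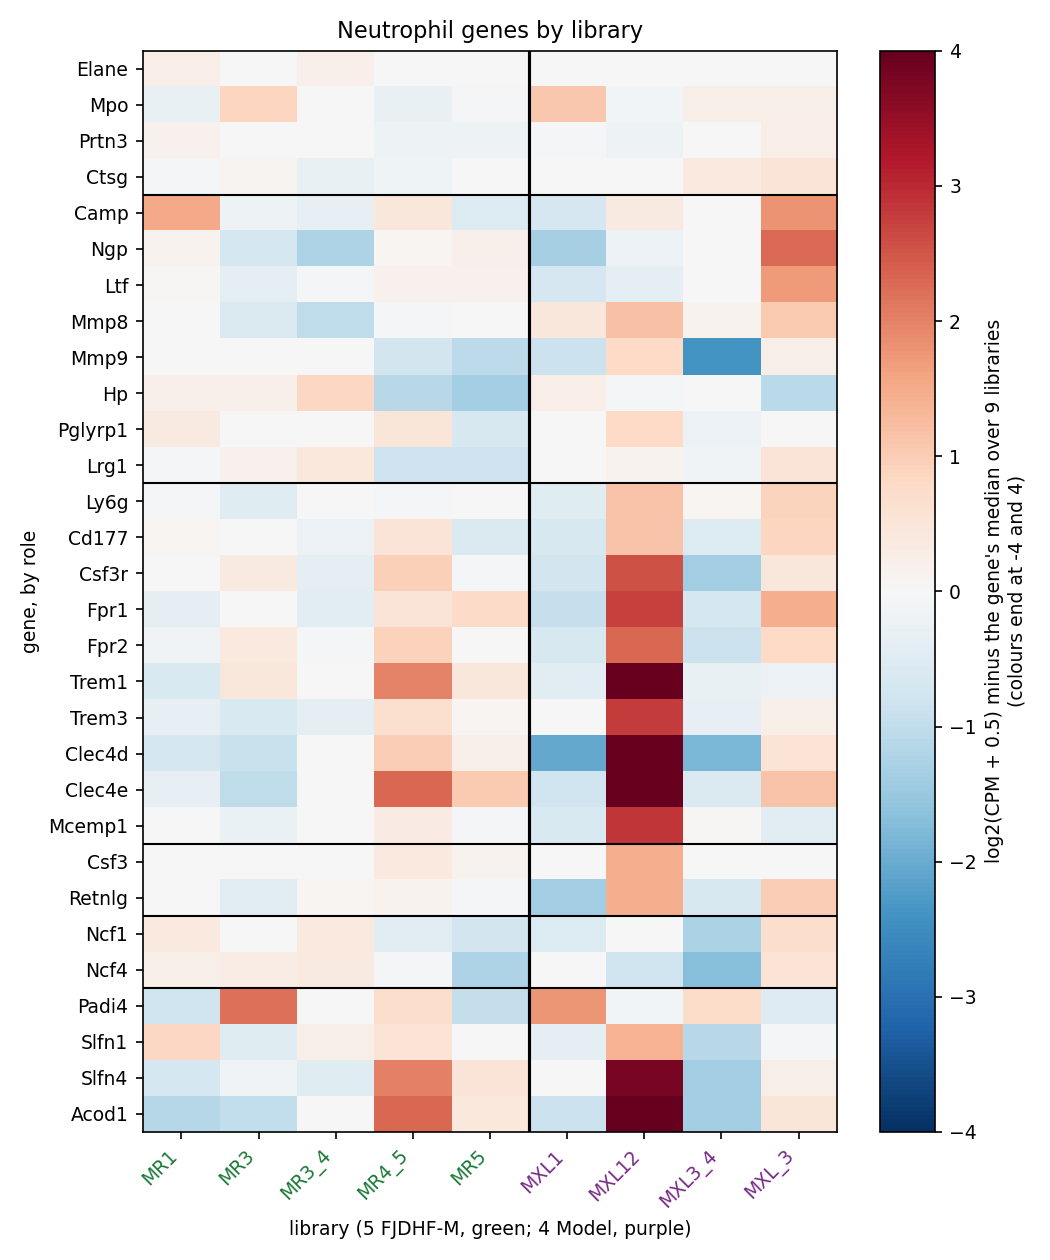
Level of each of the 30 neutrophil genes in each of the 9 libraries, as log2(CPM + 0.5) minus the gene's median over the libraries, with colours ending at -4 and 4 and genes ordered by role; the line separates the 5 FJDHF-M from the 4 Model libraries. The column of MXL12 was the highest for all 10 receptor genes, and MXL_3 was the highest for Camp, Ngp, Ltf and Lrg1.

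The primary granule genes were at or near the floor. Elane, the neutrophil elastase, had 8 counts in MR1 and 6 in MR3_4 and none in the other 7 libraries, the 4 Model libraries included. Prtn3, the related proteinase 3, which lies 3.07 kb from Elane on chromosome 10, had 11, 6, 6, 0 and 0 counts in FJDHF-M and 5, 0, 7 and 15 in Model. Neither gene passed the filter on low counts, and no fold was taken. Mpo, myeloperoxidase, had 0, 49, 9, 0 and 8 counts in MR1, MR3, MR3_4, MR4_5 and MR5 and 63, 6, 18 and 17 counts in MXL1, MXL12, MXL3_4 and MXL_3, so that its largest values stood in 1 library of each group. An antisense gene, Gm11505, covered 15.0% of the exonic bases of Mpo in the GENCODE M21 annotation, and whether counting used strand was not stated. Ctsg, cathepsin G, had 12, 18, 4, 8 and 14 counts in FJDHF-M and 14, 14, 31 and 36 in Model. Its groups overlapped, with a log2 fold change of -1.12 (SE 0.56) and an exact permutation p of 0.0714 before adjustment. Connective tissue mast cells also make cathepsin G, and the 9 mast cell markers summed to 266 to 542 CPM in FJDHF-M and to 307 to 508 CPM in Model, with their part in Ctsg not tested.

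Mmp8 lies on the forward strand of chromosome 9 (7558456 to 7568485, GRCm38), and its product cleaves fibrillar collagen after release from the specific granules. It had 328, 213, 141, 314 and 324 counts in MR1, MR3, MR3_4, MR4_5 and MR5. In MXL1, MXL12, MXL3_4 and MXL_3 it had 466, 781, 382 and 697 counts. Every Model library was thus above every FJDHF-M library, including MXL1 and MXL3_4, which had the lowest summed receptor levels of all 9. The log2 fold change was -1.18 (SE 0.33). The unadjusted p of edgeR's fit across all genes, with 9 libraries, was 0.00496, and its Benjamini-Hochberg adjusted p was 1.00. DESeq2 gave the same change of -1.18 with an adjusted p of 0.595, so the difference did not pass correction over all genes with either tool. A two-sided exact permutation test on log2(CPM + 0.5) gave p = 0.00794, which is the smallest p that groups of 4 and 5 libraries allow. The same test gave a p under 0.05 for 1.94% of all genes tested. Groups did not overlap for 110 of the 20817 genes (0.528%), and 56 of these were lower in FJDHF-M (0.269%), so 1 of 27 members is to be read against those shares. Leaving out each library in turn kept the log2 fold change between -1.34 and -1.0, with unadjusted p values of 0.003 to 0.0172. Without both MXL12 and MXL_3 it was -0.67 (SE 0.37), with only 2 Model libraries left. None of the 2376 stretches of 50 bases in the Mmp8 transcripts occurred in another annotated gene. None of the markers of other skin cells was called. The 8 keratinocyte markers had log2 fold changes above 0 with a median of 0.75, and 6 were above 0 without MXL12. Of these 8, 3 had an unadjusted edgeR p under 0.05, where 0.773% of all genes were higher in FJDHF-M at that p. For 1 of the 8 the groups did not overlap, as for Mmp8. The 6 fibroblast markers had log2 fold changes below 0, as Mmp8 did, with a median of -0.42, and summed to 19073 to 31962 CPM in FJDHF-M and to 24824 to 47547 CPM in Model. Among them 1 had an unadjusted edgeR p under 0.05, where 0.793% of all genes were lower in FJDHF-M at that p. The part of both cell types in the Mmp8 difference was not tested.

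**Figure D4:**
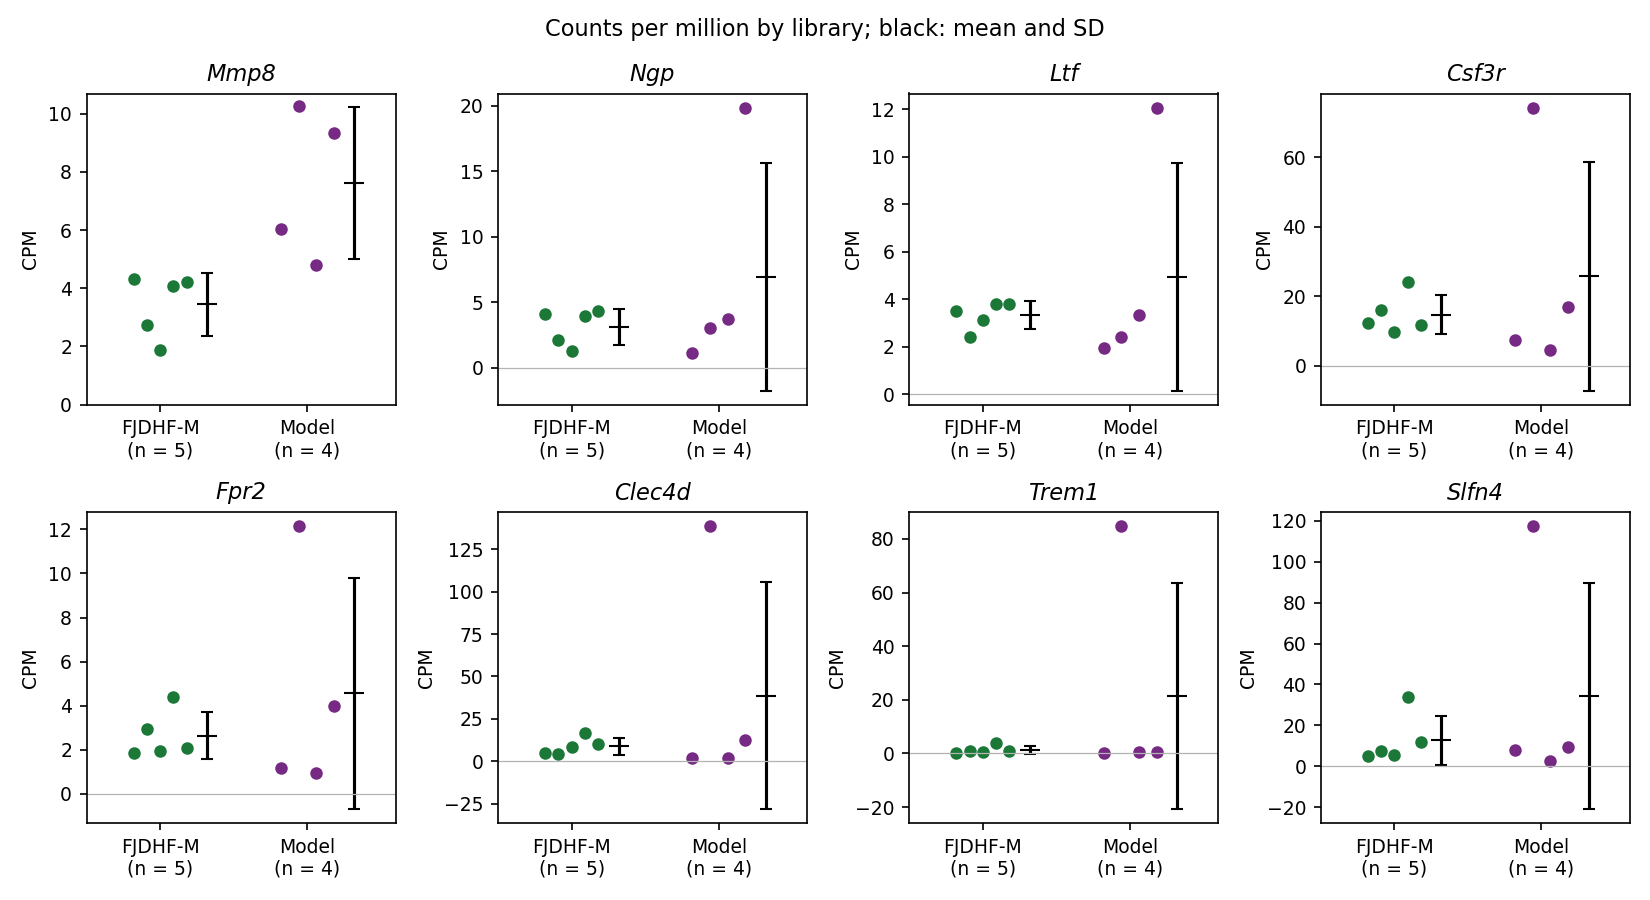
CPM of Mmp8, Ngp, Ltf, Csf3r, Fpr2, Clec4d, Trem1 and Slfn4 in each library by group (5 FJDHF-M and 4 Model), with the mean and SD in black and a separate axis starting at or below 0 for each gene. The Mmp8 groups did not overlap, at 3.45 ± 1.08 and 7.61 ± 2.61 CPM, while for the receptors and Slfn4 a single Model library lay far above the other 8.

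The antimicrobial genes of the specific granules stood apart in MXL_3. Ngp, which encodes neutrophilic granule protein, had 313, 162, 96, 302 and 332 counts in the FJDHF-M libraries, in the order given above. In Model it had 90, 233, 295 and 1482 counts. The value in MXL_3 was 5.86 times the median CPM of the other 8 libraries, and the other 3 Model libraries, at 90 to 295 counts, were no higher than those of FJDHF-M. Ltf, lactoferrin, an iron-binding protein, had 266, 186, 235, 291 and 293 counts in FJDHF-M and 150, 183, 266 and 901 counts in Model, with MXL_3 at 3.73 times the median of the others. Camp, the precursor of the antimicrobial peptide cathelicidin, had 135, 15, 10, 45 and 4 counts in FJDHF-M and 0, 40, 24 and 169 in Model. Camp thus had high values in 1 library of each group, MR1 and MXL_3. The log2 fold changes were -1.20 for Ngp (SE 0.73), -0.61 for Ltf (SE 0.52) and -0.54 for Camp (SE 1.24), all within the spread between libraries. Without MXL_3 they were 0.22, 0.35 and 0.96, so the direction of these genes rested on that library. MXL12, which led the receptors, was at 0.802 times the median of the others for Ngp and 0.704 times for Ltf. These genes all lie on chromosome 9, as does Mmp8. MXL_3 was also the library with the most skeletal muscle marker RNA, and the part of tissue composition in these values was not tested.

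The remaining granule genes were not all highest in the same library. Mmp9 and Pglyrp1 were highest in MXL12, as the receptors were, Lrg1 in MXL_3 and Hp in MR3_4. Mmp9, gelatinase B of the tertiary granules, had 1429, 1475, 1411, 853 and 678 counts in FJDHF-M and 786, 2506, 254 and 1639 in Model. The Model values of Mmp9 enclosed all those of FJDHF-M (log2 fold change -0.18, SE 0.55). Hp had 17481, 17527, 26254, 6980 and 5918 counts in FJDHF-M and 18193, 14321, 15677 and 6893 in Model. Hp made up 20.7% to 78.2% of the summed CPM of the 30 members, and its log2 fold change was 0.12 (SE 0.45). Its lowest values were in MR5, MXL_3 and MR4_5, of which the latter pair ranked high for many receptors. Lrg1, which encodes a leucine-rich glycoprotein stored in granules and also made by liver and endothelium, had 123, 153, 184, 57 and 58 counts in FJDHF-M and 133, 148, 122 and 201 in Model. It was lowest in the same 2 FJDHF-M libraries, MR4_5 and MR5, as was Mmp9 within that group. Pglyrp1, a peptidoglycan recognition protein that binds bacterial cell walls, had 10 to 67 counts in FJDHF-M and 27 to 90 in Model, and its groups overlapped.

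**Figure D5:**
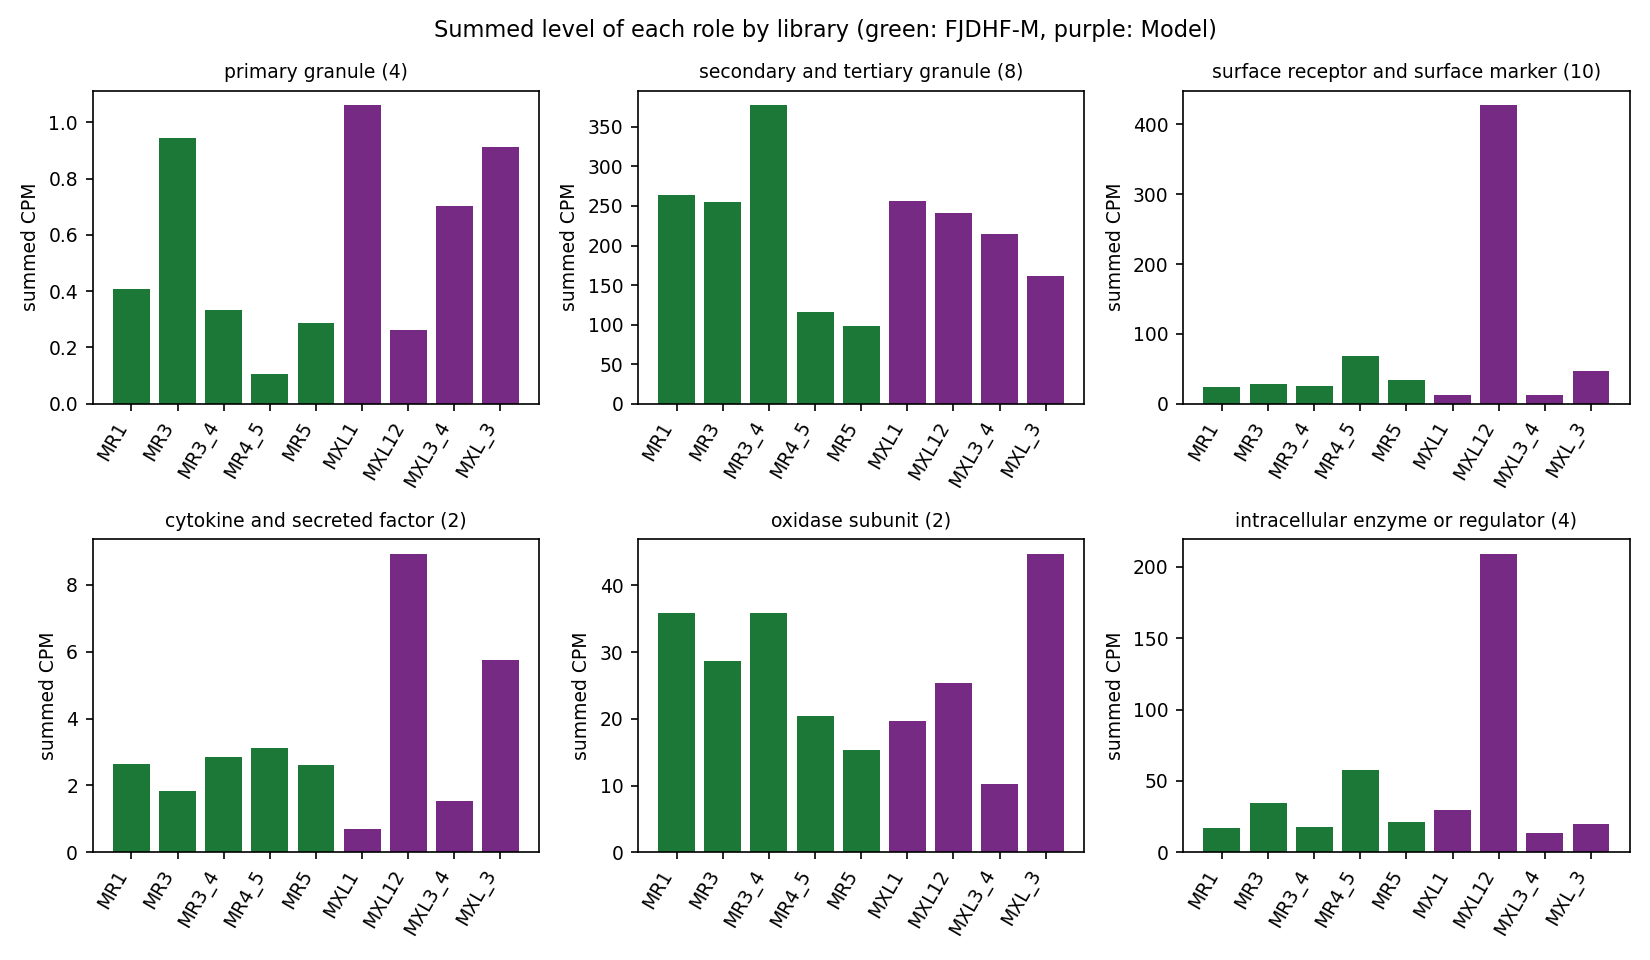
Summed CPM of the members of each role in each of the 9 libraries (bars from 0; green FJDHF-M, purple Model). The 10 receptor genes summed to 427 CPM in MXL12 and to 12 to 67.7 CPM elsewhere, while the secondary and tertiary granule genes, mostly Hp, were highest in MR3_4 at 377 CPM.

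All 10 receptor and surface marker genes were highest in MXL12. Together they summed to 427 CPM in that library, to 67.7 CPM in MR4_5, to 46.5 CPM in MXL_3 and to 12 to 34.5 CPM in the other 6. Their fitted log2 fold changes were all below 0, with a median of -1.73. Without MXL12, 4 were below 0 and the median was 0.36, and without both MXL12 and MXL_3 none was below 0 and the median was 1.42. Leaving out MXL12, which held the highest value of every gene of this role, raises these fold changes by construction. The pair was chosen after the data were seen. The sign for this role thus depended on the libraries kept, and no direction is drawn from the reduced sets.

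Csf3r, the receptor for granulocyte colony-stimulating factor, had 934, 1231, 717, 1841 and 909 counts in FJDHF-M and 559, 5651, 346 and 1253 in Model. It lay 6.18 times above the median of the other 8 libraries in MXL12, while MXL3_4 and MXL1 held its lowest values. In annotated transcripts, 10.5% of its 50-base stretches also occurred in another gene, so its counts could be split. Clec4d and Clec4e, neighbouring lectin receptors (6.52 kb apart on chromosome 6) that bind glycolipids of mycobacteria and signals of dead cells, had the highest counts of all receptor genes in MXL12 beside Trem1. Clec4d had 376, 332, 624, 1291 and 761 counts in FJDHF-M and 127, 10539, 157 and 922 in Model, which put MXL12 at 21.0 times the median of the others. Clec4e had 124, 65, 164, 965 and 387 counts in FJDHF-M and 80, 6258, 104 and 400 in Model, which put MXL12 at 43.3 times. For both genes MR4_5 was second and MXL1 and MXL3_4 were among the 3 lowest libraries. The log2 fold changes of -2.16 (SE 1.12) for Clec4d and -2.38 (SE 1.26) for Clec4e became 0.68 and 0.73 without MXL12.

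Trem1 encodes a receptor that amplifies inflammatory signals in neutrophils and monocytes, and it lies on chromosome 17 (48232768 to 48246924, GRCm38), 0.852 kb from its relative Trem3. It had 16, 77, 44, 290 and 75 counts in FJDHF-M. In Model it had 24, 6440, 30 and 32 counts. MXL12 was 167 times the median of the other libraries and 22.4 times the next, MR4_5, while the other 3 Model libraries lay below 4 of the 5 FJDHF-M libraries. The edgeR log2 fold change was -4.08 (SE 1.66) and became 1.75 without MXL12. The unadjusted edgeR p over 9 libraries was 0.0335, the adjusted p 1.00 and the exact permutation p on log2(CPM + 0.5) 0.778. Trem3 had at most 52 counts outside MXL12 and 361 counts in it, 26.1 times the median of the others. Both genes thus shared the library that was highest and the library that was second.

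The formyl peptide receptors were also highest in MXL12. Fpr2 had 141, 226, 147, 337 and 161 counts in FJDHF-M and 90, 923, 74 and 297 in Model. Its log2 fold change was -0.82 (SE 0.68) with all libraries and 0.33 without MXL12, and 31.5% of its 50-base stretches also occurred in another gene, mainly Gm5966, so its level is uncertain. Fpr1, which lies 3.88 kb from Fpr2 and binds bacterial formyl peptides, had 51, 81, 50, 130 and 164 counts in FJDHF-M and 24, 746, 36 and 281 in Model. MXL12 was at 11.4 times the median of the others for Fpr1, and MXL_3 was second, whereas MR4_5 was second for Fpr2. Mcemp1, a membrane protein expressed in mast cells and granulocytes, had 151, 119, 148, 201 and 146 counts in FJDHF-M and 86, 1333, 161 and 100 in Model. Outside MXL12 the values of Mcemp1 kept to 86 to 201 counts. The surface markers Ly6g, the gene behind the antibody epitope used to sort mouse neutrophils, and Cd177 were low, at 0 to 15 and 14 to 74 counts in FJDHF-M. In Model they had 0 to 79 and 12 to 131 counts, and both were highest in MXL12 and second in MXL_3. Ly6g was thus 5.90 times the median of the others in MXL12 and 4.49 times in MXL_3, while Trem1 and Mcemp1 were at 0.55 and 0.678 times in MXL_3.

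Among secreted factors, Csf3, granulocyte colony-stimulating factor itself, was at 0 in 6 of the 9 libraries. It had 66 counts in MXL12, 12 in MR4_5 and 4 in MR5, which are the 3 libraries with the most Trem1 apart from MR3. Retnlg, a resistin-like protein abundant in neutrophils, had 201, 142, 214, 228 and 197 counts in FJDHF-M and 54, 612, 121 and 430 in Model. The FJDHF-M values of Retnlg were close together and fell inside the range of the Model values, with a log2 fold change of -0.67 (SE 0.60).

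The oxidase subunits did not follow the receptors. Ncf1, the p47phox organiser of the phagocyte oxidase, had 2371, 1837, 2315, 1291 and 1078 counts in FJDHF-M and 1216, 1779, 751 and 2899 in Model. Ncf4, the p40phox subunit, had 357, 382, 385, 279 and 105 counts in FJDHF-M and 300, 152, 67 and 438 in Model. Both were highest in MXL_3 and lowest or second lowest in MXL3_4 and MR5. Their log2 fold changes were 0.069 (SE 0.41) and 0.31 (SE 0.55), so no difference beyond the spread was seen. Macrophages also express both genes, and the 10 macrophage markers summed to 671 to 1463 CPM in FJDHF-M and to 551 to 1329 CPM in Model. MXL3_4 had the lowest of these macrophage sums, as it had the lowest Ncf1 and Ncf4 values, and the part of macrophages in the oxidase genes was not tested. An opposite-strand gene, Gtf2ird2, covers 11.1% of the exonic bases of Ncf1.

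The intracellular genes split in the same way. Slfn4, a Schlafen family gene of activated myeloid cells, had 364, 558, 422, 2585 and 903 counts in FJDHF-M and 620, 8927, 218 and 716 in Model. Acod1, which makes the antimicrobial metabolite itaconate in activated macrophages and neutrophils, had 24, 32, 99, 653 and 147 counts in FJDHF-M and 39, 5544, 16 and 153 in Model. MXL12 was 15.4 times the median of the others for Slfn4 and 80.2 times for Acod1, and MR4_5 was second for both. Their log2 fold changes of -1.49 (SE 1.00) and -2.97 (SE 1.57) became 0.85 and 1.38 without MXL12. Slfn4 shared 10.8% of its 50-base stretches with other genes, mainly Slfn3. Slfn1, its neighbour at 52.5 kb, had 734, 277, 467, 601 and 399 counts in FJDHF-M and 295, 1090, 170 and 376 in Model, a much smaller range. Padi4, the enzyme that converts histone arginines to citrulline during the release of chromatin traps, had 187, 1782, 347, 601 and 166 counts in FJDHF-M and 1318, 325, 641 and 230 in Model. Its highest values were in MR3 and MXL1, which also held the most Mpo, and its log2 fold change was -0.048 (SE 0.73).

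Other genes of neutrophils were compared through a list of 22, of which 20 were tested. None had an unadjusted p under 0.05 with edgeR, beside 1.57% of all genes. The log2 fold change was above 0 for 8 and below 0 for 12, with a median of -0.22. Below 0 were 55.9% of all genes tested. Without MXL12, 16 were above 0 and 4 below 0 and the median was 0.40, so this balance rested on that library. Over all genes 54.9% were then below 0. MXL12 was the highest library for 12 of the 22, beside 14.1% of all genes tested. S100a9, an alarmin that is among the most abundant neutrophil proteins, had 4115, 684, 1494, 5848 and 790 counts in FJDHF-M and 443, 19372, 716 and 1957 in Model. MXL12 and MR4_5 again came first and second, and MXL12 was 16.9 times the median of the others. Itgam, the CD11b integrin shared with macrophages, had 5646, 5015, 6374, 3895 and 4079 counts in FJDHF-M and 2912, 9941, 2671 and 7451 in Model. Cybb, the membrane subunit of the oxidase, had 7342, 3454, 6549, 4453 and 6180 counts in FJDHF-M and 2825, 4782, 3160 and 9028 in Model, with MXL_3 highest as for Ncf1 and Ncf4. Il1r2, a decoy receptor for interleukin-1, had 4177, 3960, 3724, 2199 and 2998 counts in FJDHF-M and 3819, 11861, 4230 and 3209 in Model.

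Genes that draw in or activate neutrophils were compared through a list of 12, of which 11 were tested. MXL12 was the highest library for 9 of the 12, beside 14.1% of all genes tested. Of the 11, 1 had an unadjusted p under 0.05 with edgeR, Cxcl5, beside 1.57% of all genes. The log2 fold change was below 0 for 10, beside 55.9% of all genes, with a median of -0.76. Without MXL12, 9 of the 11 were above 0 and the median was 0.83. Over all genes 54.9% were then below 0. Cxcl5, a neutrophil chemokine, had 8 to 152 counts in FJDHF-M and 12 to 42 in 3 Model libraries beside 7316 in MXL12, with an exact permutation p of 0.579. Il1b, interleukin-1 beta, had 432, 264, 597, 3988 and 1106 counts in FJDHF-M and 176, 49835, 279 and 430 in Model, so MXL12 stood at 115 times the median of the others. Cxcl2, a chemokine for neutrophils, had 21, 22, 155, 2540 and 101 counts in FJDHF-M and 8, 5466, 8 and 106 in Model. The libraries with the most receptor transcripts, MXL12 and MR4_5, were also first and second for Il1b and Cxcl2. Il1a, the epidermal interleukin-1, had 1366, 911, 1088, 1766 and 782 counts in FJDHF-M and 883, 2747, 763 and 534 in Model. Csf1, the macrophage growth factor, had 6635, 8628, 6624, 4310 and 3699 counts in FJDHF-M and 5402, 4810, 4243 and 8161 in Model and was not high in MXL12.

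Markers of other blood cells were set beside these patterns. Monocyte markers (6 genes) summed to 616 to 1058 CPM in FJDHF-M and to 503 to 1097 CPM in Model, with MXL12 the highest library but close to MR1. Macrophage markers in MXL12 summed to 1194 CPM, inside the range of the other libraries. Red cell markers (6 genes) summed to 63.8 to 924 CPM in FJDHF-M and to 99.3 to 285 CPM in Model. Eosinophil markers (5 genes) summed to at most 15.5 CPM in any library. In none of these lists was a marker at 0 in all libraries. MXL12 was the library with the least skeletal muscle marker RNA, and with the muscle score as a covariate the fitted change of Trem1 was -0.72 and that of Mmp8 was -1.16. In that fit 25 of the 27 members were below 0, with a median of -0.61, and the share over all genes was not taken. Because MXL12 lay at the low end of the muscle score, this fit cannot tell muscle content from that library. The fit was not the same as leaving out MXL12, where Trem1 was at 1.75 and 13 members were below 0.

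The genes whose levels most resembled the mean level of the members were sought among 20689 tested genes outside the lists. Over the 9 libraries they were Siglece (Pearson r = 0.95), Gm39321 (r = 0.95), Cd300lf (r = 0.95), Nlrp3 (r = 0.95) and Treml4 (r = 0.94), all highest in MXL12. Over the 8 libraries without MXL12 these genes had r of 0.88, 0.81, 0.81, 0.82 and 0.77. Genes near the top over those 8 libraries included Igkv4-80 (r = 0.95), Gm10767 (r = 0.93), Gm25777 (r = 0.92) and AI839979 (r = 0.91), and over all 9 these had r of 0.11, 0.60, 0.59 and 0.86. None of them was among the 5 named over all 9 libraries. These correlations describe a few libraries and the most similar genes out of many, and no p was taken. Siglece, an inhibitory sialic acid receptor of myeloid cells, spanned 185 to 478 counts, and Nlrp3, the inflammasome sensor, spanned 98 to 3317 counts. Igkv4-80 spanned 0 to 60 counts, Gm25777 5 to 23, and Gm39321 0 to 165 with at most 40 outside MXL12. The correlations of these genes rest on few counts.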

How the data were processed

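Back skin RNA of 9 libraries was analysed, 5 of FJDHF-M and 4 of Model, made by poly(A) capture as strand-specific paired-end libraries. The authors deposited whole-number read counts per gene for 55401 genes, not normalised, and FPKM values for 34637 genes. The submitters' processing notes name HISAT, StringTie, DESeq2 and mm10 without versions or roles, and the annotation release and strand setting are not given in the sources used here. A further 9 columns of per-library values in the FPKM table were not used.

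The 30 members and all gene lists were chosen with earlier results of these data known, so no pattern they share is independent support. The members were named by role, with per-library values for those with the highest counts of each role (up to 5 a role) and for any whose groups do not overlap. For the other lists the 4 genes with the highest mean counts are given.

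The quasi-likelihood test of edgeR 4.0.16 (R 4.3.3) was run on counts after filterByExpr and TMM, with Benjamini-Hochberg adjustment over 20817 genes. CPM used total counts. Exact permutation tests used log2(CPM + 0.5) and were two-sided. Nothing states that libraries came from separate cages or extractions, so p values measure only the spread between these libraries. The steps were tested on simulated data. Alternatives were DESeq2 1.42.0 (size factors and Wald test), limma 3.58.1 on log2(FPKM + 1) and log2(FPKM + 0.1), no filter, at least 10 counts in every library, a skeletal muscle covariate and leaving out each library. After the data were seen, robust edgeR and leaving out MXL12 and MXL_3 together were added. Overlaps and shared 50-base stretches came from GENCODE M21 and promoters from RefSeq (GRCm38.p6), read with Python 3.11.15. RefSeq protein sequences were not used here. A gene that the likeness ranking selects is not reported here. Figures were drawn with matplotlib 3.10.9.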

Additional observations from a re-analysis of the deposited data

Results flagged for a closer look

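Within groups of 4 or 5 libraries, the gap between the highest or lowest library and its nearest neighbour, as a share of the group's range of log2(CPM + 0.5), was compared with Dixon's critical value. It passed for 5 of 59 gene and group combinations, where chance alone would give 2.95 for normally spread values without ties. Genes with many 0 counts do not have such values. Trem1 passed in MXL12 with a ratio of 0.9707 (6440 counts, beside 24 to 32 in the other Model libraries), and Csf3 passed in the same library with 1.0 (66 counts, beside 0). Where the other libraries of the group are all at 0, any count above 0 gives a ratio of 1.0. In FJDHF-M, Mpo passed in MR3 with 0.7378 (49 counts, beside at most 9). Ly6g passed in MR3 with 0.8107, on the low side, at 0 counts beside 12 to 15. Ncf4 passed in MR5 with 0.7224, on the low side, at 105 counts beside 279 to 385. The values of Mpo, Ly6g and Csf3 rest on few counts.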

How the results depend on the processing

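No member was called under any alternative run. Among all genes, DESeq2's Wald test called 12 and the muscle covariate 1, where edgeR called 0. Genes with an unadjusted p under 0.05 numbered 651 with the Wald test, 905 without the filter and 652 without MXL12 and MXL_3, and 217 to 734 when each library was left out. Members with such a p numbered 1 with the Wald test, which gave no p for 8 members (Trem1 among them, with its fold change at -4.08), 1 with the muscle covariate and 7 without MXL12 and MXL_3, all 7 higher in FJDHF-M. Leaving out each library gave 1 to 10, all lower in FJDHF-M, with 10 without MXL1, 7 without MXL3_4 and 5 without MR4_5. The exact permutation test gave a p under 0.05 for 3 members without both libraries and for 1 to 3 when each was left out. Without both libraries the smallest exact permutation p among the members was 0.0476. The share over all genes was not taken for these reduced sets, so these counts are not read as a result about the members.

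The median log2 fold change of the members was -0.17 with limma on log2(FPKM + 1), which compresses low genes, 0.89 without MXL12 and MXL_3, and -1.14 to 0.099 when each library was left out. Members below 0 numbered 6 without both libraries and 13 to 26 when each was left out. Without MXL12 and MXL_3, log2 fold changes turned to 1.88 for Trem1, 0.33 for Ngp, 0.31 for Ltf, 1.33 for Csf3r, 2.26 for Clec4d and 1.89 for Clec4e. When each library was left out they ran from -4.98 to 1.75 for Trem1, -1.55 to 0.22 for Ngp, -0.89 to 0.35 for Ltf, -1.19 to 0.59 for Csf3r, -2.56 to 0.68 for Clec4d, -3.23 to 0.73 for Clec4e and -1.34 to -1.0 for Mmp8. Beyond the libraries left out, the cause was not tested. No paired analysis was possible because the column codes were not matched to numbered mice. Depth limits Elane, Prtn3, Csf3 and Mpo, which lie at or near the floor.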
